A study of Mus musculus with 16 samples.

Results

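Acute colitis was followed here over 1 day: 3 mice on day 6 of dextran sulfate sodium (DSS) against 3 mice on day 5, all given an anti-GFP control antibody. These 6 animals are 6 of the 16 mice of a single-cell RNA study of the transverse colon, and they hold 6548 of its 22717 cells (3253 on day 6 and 3295 on day 5). All mice were female C57Bl/6J of 7 weeks. The day-6 and day-5 mice drank 4% DSS throughout, received 10 mg/kg anti-GFP on day 4, and were collected 48 h or 24 h after that dose. The study also holds 3 mice at each time that were given SZN-1326-p in place of anti-GFP, and 2 uninjured mice at each time without DSS, which serve here as a check on effects of the collection day. Each library is 1 animal, so the comparison is between different mice and not within a mouse over time. Cells came from an EDTA-released epithelial fraction and an enzyme-digested lamina propria fraction, were sorted and then sequenced with 10x chemistry, so the makeup of a sample also reflects how the tissue was taken apart.

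DSS is a sulfated polysaccharide that injures the colonic epithelium when mice drink it, and neutrophils and monocytes then enter the mucosa. Cells that meet misfolded proteins in the cytosol raise chaperones of the heat shock family, mostly through the transcription factor HSF1, while misfolded proteins in the endoplasmic reticulum (ER) are met by the unfolded protein response. Anti-GFP is directed against a jellyfish protein that these mice lack, and it stands as the antibody control.

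The 6 mice carried the marks of colitis in these files. Mature enterocytes (deposited type Enterocyte) numbered 3 cells in all 6 anti-GFP mice, against 13.8% to 24.0% of epithelial cells in the uninjured mice. In immune cells the alarm cytokine Il1b had 55.1 to 113 normalized UMIs per cell in the 6 anti-GFP mice, against 7.19 to 13.4 in the uninjured mice. A normalized UMI is a transcript count divided by the size factor of its cell, and a level is its mean over the cells of 1 mouse. The summed level of 6 epithelial markers was 117 to 143 in the epithelial layer of day-6 mice and 109 to 131 in that of day-5 mice, against at most 2.90 in the stromal layer.

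The libraries of both days held like totals of cells and UMIs. The anti-GFP libraries held 936 to 1268 cells and 9616512 to 14928677 UMIs each, and 4 of their 6544 barcodes occurred in more than 1 library. In 4 of the 16 libraries long transcripts lay above short ones by more than 0.2 on the log2 scale in the stromal layer, relative to the mean library. Of the anti-GFP mice, day-5 mice 1 and 2 were among these 4 (0.69 and 0.58), while the 3 day-6 mice (-0.08, 0.03 and 0.17) and day-5 mouse 3 (-0.16) were not. The other split libraries are SZN-1326-p mouse 1 (0.44) and uninjured mouse 1 (0.34), both of 24 h, so no split library is of 48 h. The split therefore runs partly along the day, and the 48 h against 24 h comparisons in the other arms carry it too. No comparison of days within the split libraries is possible, as they hold no day-6 anti-GFP mouse. Differences are given below also with a library term in the fit, or without the 4 split libraries, which leaves 1 day-5 mouse. In the epithelium the median UMIs per cell were 17164, 16330 and 16690.5 in the day-6 mice, against 9102, 12256 and 14184 in the day-5 mice, and the median mitochondrial share was 26.1%, 32.1% and 31.1% against 36.7%, 35.4% and 31.9%. The UMI medians do not overlap between the days, the mitochondrial shares do, and the part of these measures in the epithelial results was not tested.

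In tissue makeup, the immune share was higher in all 3 day-6 mice, while no share of a layer or type passed an adjusted test. Immune cells made up 36.6%, 37.6% and 54.2% of cells in the day-6 mice, against 24.4%, 32.5% and 32.1% in the day-5 mice. Epithelial cells made up 20.9%, 26.8% and 20.5% in the day-6 mice, against 43.7%, 25.6% and 42.3% in the day-5 mice, and stromal cells 42.5%, 35.6% and 25.3% against 31.9%, 41.9% and 25.6%. The groups overlap for epithelium and stroma but not for immune cells. With 3 mice on each day a two-sided exact permutation test of log2 shares cannot go below p = 0.1, which the immune share reached (0.3 after adjustment over the 3 layers), beside 0.2 for epithelium and 0.8 for stroma. Among cells with under 20% mitochondrial UMIs the immune shares overlapped as well. In uninjured mice, without DSS, immune shares were also higher at 48 h (9.04% and 8.43%) than at 24 h (6.58% and 7.55%). Their epithelial shares were lower at 48 h (59.0% and 56.8%) than at 24 h (73.3% and 70.7%). In SZN-1326-p mice the immune shares overlapped, with 23.2%, 18.9% and 16.9% at 48 h and 21.9%, 19.8% and 20.5% at 24 h. The part of the collection time in the layer shares was not tested.

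**Figure D1:**
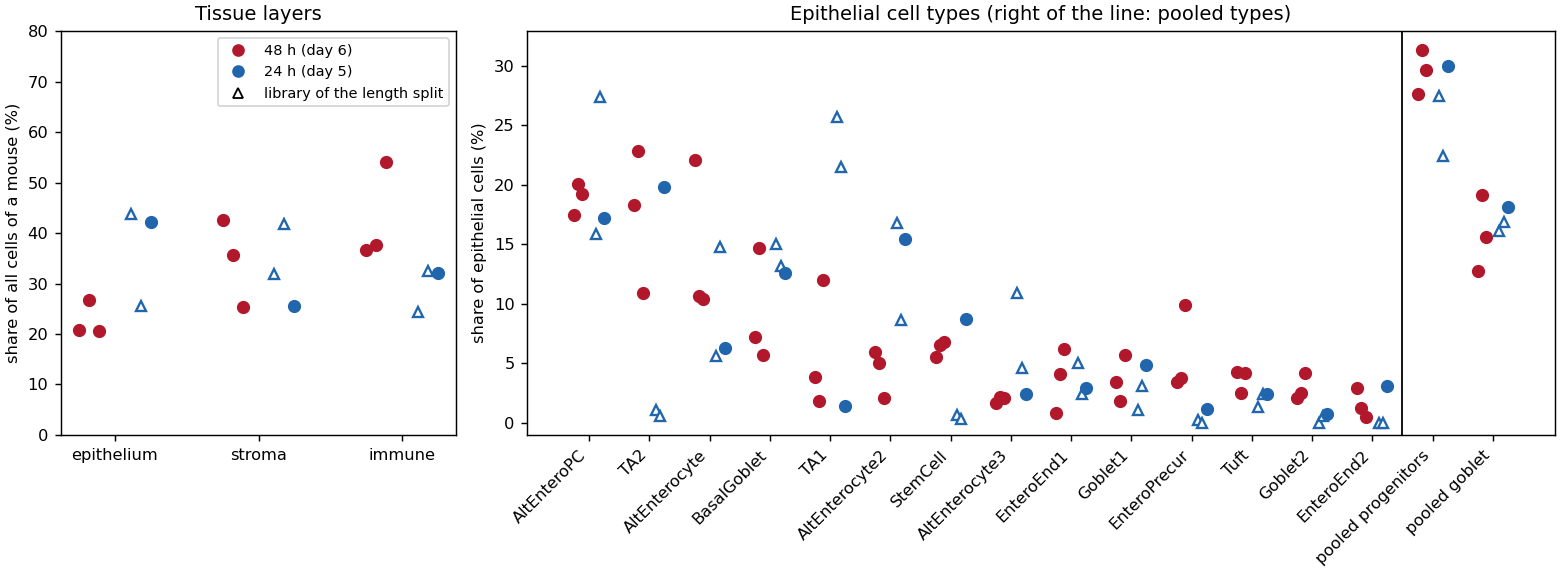
Share of each tissue layer among all cells (left, %) and of each epithelial type among epithelial cells (right, %), 1 point per mouse with day 6 left of day 5 and open triangles for the split libraries. Immune shares lie between 36.6% and 54.2% on day 6 and between 24.4% and 32.5% on day 5, while AltEnterocyte2 lies lower on day 6.

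Of 41 cell types tested, 6 (14.6%) had shares that did not overlap between the days, 3 higher and 3 lower on day 6. AltEnterocyte2, an enterocyte state that the uninjured mice held at a median of 2.04%, made up 5.96%, 5.02% and 2.08% of epithelial cells in day-6 mice, against 16.8%, 8.62% and 15.5% in day-5 mice. AltEnterocyte3 made up 1.70%, 2.19% and 2.08% in day-6 mice, against 10.9%, 4.62% and 2.42% in day-5 mice. These enterocyte states were the scarcer ones on day 6 in every animal. EnteroPrecur cells made up 3.40%, 3.76% and 9.90% in day-6 mice, against 0.218%, 0% and 1.21% in day-5 mice, and Goblet2 cells 2.13%, 2.51% and 4.17% against 0%, 0.615% and 0.726%. Tuft cells, the chemosensory cells of the epithelium, made up 4.26%, 2.51% and 4.17% in day-6 mice, against 1.31%, 2.46% and 2.42% in day-5 mice. Dendritic cells made up 9.69%, 9.17% and 7.30% of immune cells in day-6 mice, against 9.77%, 11.9% and 9.87% in day-5 mice. Every one of these 6 types reached only the smallest p the exact test allows, 0.1, with the lowest adjusted p at 0.683. In uninjured mice Goblet2 shares were also higher at 48 h (2.89% and 1.98%) than at 24 h (0.825% and 0.598%). AltEnterocyte2 ran the other way there, with 2.89% and 6.38% at 48 h and 0.412% and 1.20% at 24 h. EnteroPrecur overlapped, with 15.2% and 10.3% at 48 h and 0.928% (a split library) and 10.3% at 24 h. AltEnterocyte3, tuft and dendritic shares overlapped too.

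The dividing cells of the crypt carried different deposited labels in different mice. TA1 cells made up 3.83%, 1.88% and 12.0% of the epithelium in day-6 mice, against 25.7%, 21.5% and 1.45% in day-5 mice, and TA2 cells 18.3%, 22.9% and 10.9% against 1.09%, 0.615% and 19.9%. Cells of the StemCell type made up 5.53%, 6.58% and 6.77% in day-6 mice, against 0.654%, 0.308% and 8.72% in day-5 mice. Day-5 mouse 3, the one outside the split libraries, lies nearer to the day-6 mice than to the other day-5 mice in all 3 types. Among SZN-1326-p mice at 24 h, TA1 was 47.2% in the split library, against 2.91% and 2.57% in the others. In uninjured mice at 24 h it was 7.32% in the split library, against 0.855%. TA2 was lower in both of these split libraries, while StemCell was lower in the SZN-1326-p one and higher in the uninjured one. The part of the library kind in these labels was not tested. Pooled, these progenitors made up 27.7%, 31.4% and 29.7% in day-6 mice, against 27.5%, 22.5% and 30.0% in day-5 mice, and the groups overlap. Pooled goblet cells (BasalGoblet, Goblet1 and Goblet2) made up 12.8%, 19.1% and 15.6% in day-6 mice, against 16.1%, 16.9% and 18.2% in day-5 mice. The groups overlap for the pooled goblet cells too, and both pools were formed after the shares of the single types were seen.

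The clearest difference in expression was in the heat shock chaperones, which were higher on day 6 in all 3 tissue layers. Among 12 listed genes, 11 epithelial, 12 stromal and 9 immune ones had all 3 day-6 mice above all 3 day-5 mice, where 6.93%, 4.87% and 4.18% of all tested genes did so. Their median log2 difference was 0.98 in epithelium, 0.97 in stroma and 0.73 in immune cells, beside medians of 0.02, -0.01 and 0.00 over all genes. With a library term these medians were 0.76, 0.89 and 0.62, and without the split libraries 0.70, 1.09 and 0.51. In uninjured mice the same list had medians of 0.23, 0.17 and 0.20 for 48 h against 24 h.

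Summed over the 12 genes, the level in the epithelium was 60.4, 72.3 and 63.5 normalized UMIs per cell in the day-6 mice, against 33.3, 27.2 and 35.9 in the day-5 mice. In the stroma the sum was 64.8, 90.35 and 71.5 in the day-6 mice, against 41.0, 35.15 and 37.6 in the day-5 mice. Immune cells had 59.75, 71.1 and 69.4 in the day-6 mice, against 45.4, 33.7 and 43.3 in the day-5 mice. No layer shows overlap between the days. As mean ± SD (n = 3 mice each) the sums were 65.4 ± 6.17 on day 6 and 32.2 ± 4.48 on day 5 in epithelium, 75.6 ± 13.2 and 37.9 ± 2.94 in stroma, and 66.75 ± 6.12 and 40.8 ± 6.23 in immune cells. The uninjured mice had stromal sums of 55.5 and 51.7 at 48 h and 44.3 and 50.6 at 24 h, and the SZN-1326-p mice 54.8, 49.8 and 42.5 at 48 h and 42.65, 48.1 and 45.6 at 24 h. In the stroma the day-6 anti-GFP mice therefore lie above every other mouse of the study and the day-5 anti-GFP mice below every other. In the epithelium SZN-1326-p mice had 58.1, 64.5 and 44.7 at 48 h and 49.7, 52.9 and 55.2 at 24 h, and uninjured mice 48.0 and 45.3 at 48 h and 35.6 and 44.8 at 24 h. There the day-5 anti-GFP sums reach the lowest uninjured one, and the day-6 sums reach down to the highest of the SZN-1326-p mice. Immune sums were 64.0, 68.9 and 57.5 at 48 h and 50.5, 49.3 and 52.8 at 24 h in SZN-1326-p mice, also without overlap. Uninjured mice had immune sums of 65.1 and 55.1 at 48 h and 48.9 and 59.8 at 24 h. In the immune layer the day-6 anti-GFP sums therefore overlap the 48 h sums of both other arms. The day-5 anti-GFP sums there lie below every other mouse.

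**Figure D2:**
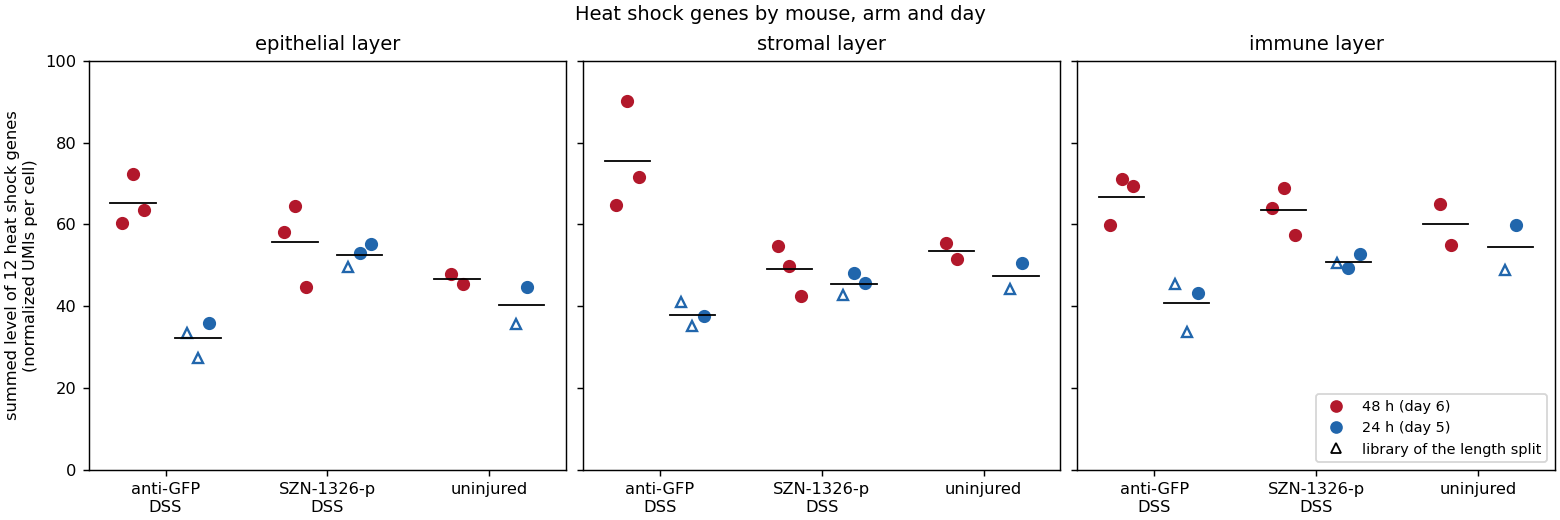
Summed level of the 12 heat shock genes (normalized UMIs per cell) by mouse in each tissue layer, for anti-GFP, SZN-1326-p and uninjured mice, 48 h left of 24 h, with lines for group means and open triangles for the split libraries. Stromal sums of the anti-GFP mice are 64.8 to 90.35 on day 6 and 35.15 to 41.0 on day 5, with the mice of both other arms between them.

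A short sequence was found before the starts of 7 of the 12 listed genes. HSF1 is known to bind inverted repeats of the bases GAA, and the heat shock element searched was GAANNTTC or TTCNNGAA, each of which reads the same on both strands, in the 250 bases before a gene's start. It lies in 12.8% of 32851 such windows in RefSeq's tables for GRCm38.p6. Of the 9 listed genes found there, 7 had it in any of their windows, with no match for Dnajb1 and Bag3. Some genes have more than 1 window, so this count is not a like measure to the 12.8% of single windows. Nor are the 7 separate: Hspa1a and Hspa1b share a match at the same position, and Hspe1 and Hspd1 hold the same letters read from opposite strands. Stretches from 4 genes that differed between days and from Herpud1, an ER gene described further on, are printed 5′ to 3′ on the strand of the gene, with the motif in capitals. For Herpud1 the capitals mark ATTGG and CCACG with 1 base between them, an ER stress element known as ERSE-II, which occurs on either strand in 0.0304% of the windows. Herpud1 alone of the ER genes was looked up for it. Positions count from RefSeq's start sites. GENCODE starts Hsph1 and Dnaja1 further upstream, so that the stretches of these genes overlap the genes as GENCODE draws them. A match is a description of the letters and not a measured binding site.
Hspa1b (chr17:34959239-34959388, minus strand): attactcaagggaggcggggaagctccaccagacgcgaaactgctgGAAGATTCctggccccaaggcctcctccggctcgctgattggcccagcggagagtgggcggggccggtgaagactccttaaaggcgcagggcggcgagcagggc
Hsph1 (chr5:149636351-149636380, minus strand): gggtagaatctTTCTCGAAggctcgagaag
Dnaja1 (chr4:40722333-40722362, plus strand): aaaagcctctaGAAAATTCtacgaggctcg
Hspb1 (chr5:135887769-135887918, plus strand): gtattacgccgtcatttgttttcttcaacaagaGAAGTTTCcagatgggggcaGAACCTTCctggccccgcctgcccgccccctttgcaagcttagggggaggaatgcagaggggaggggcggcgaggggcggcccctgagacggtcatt
Herpud1 (chr8:94386279-94386428, plus strand): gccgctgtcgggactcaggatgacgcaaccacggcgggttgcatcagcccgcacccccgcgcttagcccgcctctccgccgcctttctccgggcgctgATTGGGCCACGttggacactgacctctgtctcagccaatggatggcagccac

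In the epithelium 2 of 10795 genes (0.0185%) passed an adjusted p of 0.05, and both are heat shock genes that rose. Log2 differences and adjusted p-values are from limma across all genes of a layer. Hspa1b (chr17:34956436-34959238), an inducible HSP70 chaperone that refolds proteins, had 2.42, 4.03 and 4.38 normalized UMIs per cell in day-6 mice, against 0.581, 0.416 and 0.419 in day-5 mice. Every day-6 mouse held over 4 times the level of the highest day-5 mouse. The log2 difference was 2.88 ± 0.35 (SE, adjusted p = 0.00366), beside 0.72 for 48 h against 24 h in uninjured mice. It was 3.01 with the library term, where the adjusted p was 0.058, and 3.03 without the split libraries (adjusted p = 0.39). Hsph1 (chr5:149614287-149636376), a large HSP110 chaperone that lets HSP70 release its clients, had 1.08, 1.78 and 1.61 in day-6 mice, against 0.529, 0.353 and 0.284 in day-5 mice. Its groups are also apart, by 1.93 ± 0.26 (adjusted p = 0.00366), with 2.22 under the library term (adjusted p = 0.00429) and 2.32 without the split libraries (adjusted p = 0.0136). With equal weight to the 2 largest enterocyte types in place of the layer's own makeup, the Hsph1 difference was 1.48 and its adjusted p 0.103. Both genes stayed below 0.05 when any 1 of the 6 mice was left out.

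The other epithelial chaperones differed in the same direction without passing the threshold. Hspa1a had 2.28, 3.17 and 2.92 in day-6 mice, against 0.785, 0.500 and 0.400 in day-5 mice (log2 difference 2.34, adjusted p = 0.0698). It is closely related to Hspa1b, and reads of the 2 genes may in part not be told apart. Dnaja1, a cochaperone that brings clients to HSP70, had 4.24, 5.32 and 3.92 in day-6 mice, against 2.44, 1.88 and 1.89 in day-5 mice (1.12, adjusted p = 0.0613). Hsp90aa1, the inducible HSP90, had 6.97, 8.96 and 7.49 in day-6 mice, against 3.94, 3.26 and 3.74 in day-5 mice (1.09, adjusted p = 0.0613). In all 3 genes the days do not overlap. Hspa8, the constitutive HSP70, had 18.7, 21.2 and 19.6 in day-6 mice, against 9.66, 8.31 and 11.4 in day-5 mice (1.03, adjusted p = 0.11). Bag3, Dnajb1, Hspe1, Hsp90ab1 and Hspd1 were higher in every day-6 mouse by 0.49 to 0.94, with adjusted p from 0.0856 to 0.367. Hspb1, a small heat shock protein, was the one listed gene whose days overlapped (log2 difference 0.25).

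Among stromal cells 9 of 11463 genes (0.0785%) passed, 8 of them higher (0.0698%) and 1 lower on day 6 (0.00872%), and 5 of these 8 belong to the heat shock list. Hspa1b had 2.96, 6.32 and 4.60 in day-6 mice, against 0.842, 0.503 and 0.693 in day-5 mice (log2 difference 2.71 ± 0.31, adjusted p = 0.000532), and Hspa1a 4.99, 7.07 and 5.07 against 2.08, 1.38 and 1.82 (1.69 ± 0.26, adjusted p = 0.00619). The uninjured mice differed in the same direction between collection times, by 1.04 for Hspa1b and 1.13 for Hspa1a, whose levels there were 5.16 and 3.49 at 48 h and 1.50 and 2.47 at 24 h. With the library term the differences were 2.52 (adjusted p = 0.0753) and 1.53 (adjusted p = 0.176). Dnaja1 had 5.08, 7.12 and 5.73 in day-6 mice, against 2.80, 2.50 and 2.60 in day-5 mice (1.17 ± 0.17, adjusted p = 0.00619; 1.19 and 0.00158 with the library term). Hsph1 had 0.904, 2.01 and 1.40 in day-6 mice, against 0.600, 0.438 and 0.306 in day-5 mice (1.64 ± 0.27, adjusted p = 0.018; 1.93 and 0.0403 with the library term). Hspb1 had 3.69, 5.35 and 4.39 in day-6 mice, against 2.30, 1.09 and 1.44 in day-5 mice (1.52 ± 0.27, adjusted p = 0.0327; 1.23 and 0.281 with the library term). Each of the 5 genes was higher in every day-6 mouse than in any day-5 mouse. Without the split libraries, which leaves 1 day-5 mouse, Hspb1 alone of the 9 stromal calls was kept (1.62, adjusted p = 0.0145), while Hspa1b (2.65, 0.138), Hspa1a (1.63, 0.215), Dnaja1 (1.19, 0.0514) and Hsph1 (2.12, 0.111) were not.

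Single mice bear on several of these stromal calls. Hspa1b passed without any 1 mouse. Hspa1a lost the call without day-6 mouse 2 (1.53, adjusted p = 0.0707) or day-5 mouse 2 (1.53, 0.0773), and Dnaja1 without the same mice (1.03, 0.0674 and 1.13, 0.0705). Hsph1 lost it without day-6 mouse 2 (1.36, 0.103) or 3 (1.62, 0.112), or day-5 mouse 2 (1.65, 0.0872) or 3 (1.40, 0.0543). Hspb1 lost it without day-6 mouse 1 (1.65, 0.0518), 2 (1.39, 0.201) or 3 (1.53, 0.159), or day-5 mouse 2 (1.28, 0.222) or 3 (1.48, 0.0801). Day-6 mouse 2 held the highest level of all 5 genes. Genes of the same machinery just missed the threshold: the HSP90 activator Ahsa2 (0.95, adjusted p = 0.0694), Cacybp (0.88, 0.0694), Hsp90aa1 (0.95, 0.0727), the HSP90 cochaperone Chordc1 (1.00, 0.0727) and Hspa8 (0.98, 0.0727), each higher in all 3 day-6 mice.

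In immune cells 1 of 11423 genes (0.00875%) passed, and it is Hsph1. Its level was 0.751, 1.35 and 1.36 in day-6 mice, against 0.372, 0.304 and 0.231 in day-5 mice (log2 difference 1.87 ± 0.25, adjusted p = 0.00278), beside 0.19 in uninjured mice. It passed with the library term (2.04, adjusted p = 0.00565) and without the split libraries (2.22, 0.0403), but not without day-6 mouse 2 (1.73, 0.0638) or day-6 mouse 3 (1.73, 0.0611). Hspa1b did not pass here, with 0.954, 0.935 and 0.874 in day-6 mice, against 0.758, 0.312 and 0.411 in day-5 mice (0.98, adjusted p = 1). The groups stay apart, though narrowly. Hspa1a overlapped between days (0.42). Dnaja1 had 4.97, 6.50 and 4.81 in day-6 mice, against 3.06, 2.79 and 2.97 in day-5 mice (0.87, adjusted p = 0.292), and Hsp90aa1 5.65, 7.26 and 7.91 against 4.45, 3.77 and 3.86 (0.77, adjusted p = 0.654).

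Within single cell types the heat shock list had its largest medians in blood vessel endothelium (1.29) and in CryptFB1 fibroblasts (1.23), of 12 types tested. These 12 deposited types held at least 20 cells in each of the 6 mice, and 37 pairs of a gene and a type passed in them. Summed over the 12 genes, vascular endothelium (VascEndo) had 105, 150 and 120.5 normalized UMIs per cell in day-6 mice, against 55.15, 42.8 and 50.8 in day-5 mice. CryptFB1 fibroblasts had 69.1, 92.7 and 75.2 in day-6 mice, against 33.7, 31.9 and 38.25 in day-5 mice. Neither pair of groups comes near to touching. The sums did not overlap in 11 of the 12 types. The exception was ActNeutrophil, the activated neutrophils, with 33.3, 47.5 and 45.9 in day-6 mice, against 33.6, 21.65 and 35.3 in day-5 mice.

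**Figure D3:**
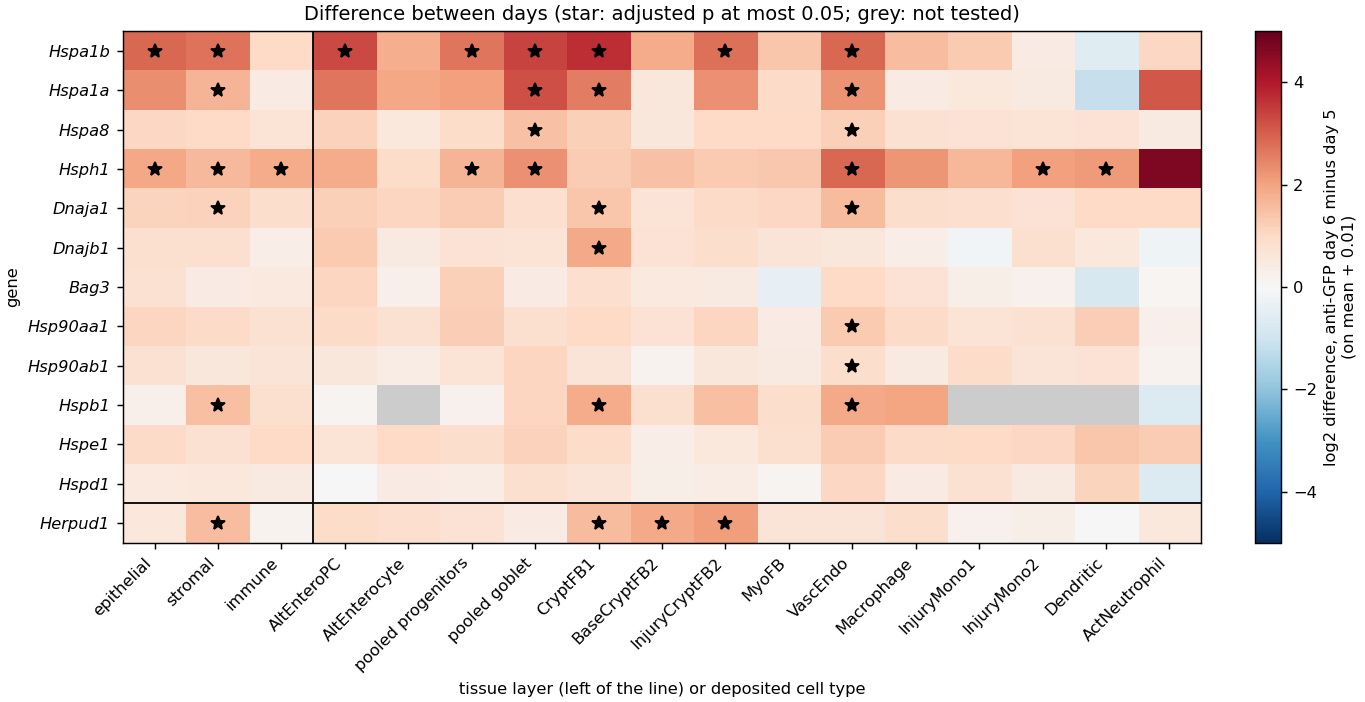
Log2 difference between anti-GFP day 6 and day 5 for the 12 heat shock genes and Herpud1 in 3 tissue layers, 12 deposited types and 2 pooled types, with stars where limma's adjusted p is at most 0.05 and grey where a gene was not tested. VascEndo has stars for 8 of the 12 heat shock genes and CryptFB1 for 5, while ActNeutrophil has none (its Hsph1 was at 0 in all day-5 mice, so that square depends on the 0.01 added).

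In VascEndo 10 of 11487 genes passed (0.0871%), and 8 of them are on the heat shock list, all higher on day 6. Hspb1 had 14.5, 19.3 and 13.3 in day-6 mice, against 3.87, 3.40 and 5.51 in day-5 mice (log2 difference 1.89 ± 0.24, adjusted p = 3.3e-05). Hsph1 had 1.79, 3.76 and 2.88 in day-6 mice, against 0.503, 0.498 and 0.178 in day-5 mice (2.88 ± 0.42, adjusted p = 0.00023). Dnaja1 had 8.40, 13.2 and 9.50 in day-6 mice, against 3.82, 3.04 and 3.49 in day-5 mice (1.57 ± 0.24, adjusted p = 0.000419). These 3 kept the call in all alternatives that were run for them, though some of these leave 1 day-5 mouse, which held 20 cells of this type. With that mouse alone far more genes of the type passed than in the main fit, so a kept call there says little. Hspa8 rose by 1.21, Hspa1b by 2.88, Hspa1a by 2.25, Hsp90aa1 by 1.31 and Hsp90ab1 by 0.86 (adjusted p from 0.00171 to 0.0411), and Hspa8 lost the call without day-6 mouse 2 (0.0509). Hspa1b and Hspa1a lost it without day-6 mouse 2 (0.101 and 0.112) or 3 (0.121 and 0.157) or day-5 mouse 3 (0.094 and 0.134), and with the library term (0.127 and 0.137). Hsp90aa1 lost it without day-6 mouse 2 (0.195) or 3 (0.121) or day-5 mouse 1 (0.0541) or 2 (0.113) or without the split libraries (0.0627), and Hsp90ab1 without any but day-5 mouse 3 (0.121 to 0.314). The type held 20 to 63 cells per mouse.

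In CryptFB1, with 33 to 86 cells per mouse, 9 of 11403 genes passed (0.0789%) and 5 are heat shock genes. Hspa1b had 3.65, 7.48 and 6.43 in day-6 mice, against 0.368, 0.459 and 0.462 in day-5 mice (log2 difference 3.68 ± 0.28, adjusted p = 1.36e-08), and this call held in every alternative run. Both the level on day 6 and the distance between the days are larger than in the stromal layer as a whole. Hspa1a rose by 2.57 (adjusted p = 6.67e-05, 0.0814 with the library term) and Dnaja1 by 1.37 (0.0129), a call lost without day-6 mouse 2 (0.132) or 3 (0.0715) or day-5 mouse 1 (0.0894) or 2 (0.162). Dnajb1, the cochaperone that starts HSP70's cycle, had 0.528, 0.603 and 0.745 in day-6 mice, against 0.111, 0.194 and 0.185 in day-5 mice (1.90, adjusted p = 0.00713), a call lost without day-6 mouse 3 (0.0628) or day-5 mouse 1 (0.0872). Hspb1 rose by 1.84 (adjusted p = 0.00607), lost without day-5 mouse 1 (0.0828) or 2 (0.0987). Without the split libraries Hspa1b alone of the 9 calls was kept (0.0387). InjuryCryptFB2 fibroblasts, where 3 of 11455 genes passed (0.0262%), had Hspa1b at 1.14, 3.00 and 2.12 in day-6 mice, against 0.338, 0.287 and 0.225 in day-5 mice (2.75 ± 0.32, adjusted p = 1.67e-05; 0.051 without the split libraries). The other calls there were Herpud1 and Ms4a8a, and Ms4a8a had 12 UMIs in day-6 mice and 14 UMIs in day-5 mice.

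Epithelial and myeloid types had 1 heat shock call each at most. AltEnteroPC, another epithelial type, had Hspa1b at 2.82, 6.21 and 3.02 in day-6 mice, against 0.774, 0.276 and 0.234 in day-5 mice (3.31 ± 0.45, adjusted p = 0.0112), its only call (0.0095% of genes), which was lost without day-6 mouse 2 (0.065) or day-5 mouse 2 (0.151) or 3 (0.0683), with the library term (0.0869) and without the split libraries (0.114). In dendritic cells Hsph1 was the only call (0.00991%), at 1.32, 2.69 and 2.54 in day-6 mice, against 0.606, 0.526 and 0.327 in day-5 mice (2.12 ± 0.33, adjusted p = 0.00634), lost without day-6 mouse 2 (0.139) or 3 (0.231). InjuryMono2 monocytes had Hsph1 at 0.678, 1.19 and 1.12 in day-6 mice, against 0.163, 0.287 and 0.246 in day-5 mice (2.05, adjusted p = 0.0165), lost without day-6 mouse 2 (0.272) or 3 (0.421) or day-5 mouse 1 (0.0927), with the library term (0.101) and without the split libraries (0.419), the only call there (0.00962%). The 2 near-identical HSP70 genes did not follow Hsph1 in dendritic cells, where Hspa1a had 2.58, 0.702 and 0.153 in day-6 mice, against 2.35, 1.07 and 1.24 in day-5 mice. InjuryMono1 and MyoFB cells had no call by limma (0.0% each), while 7 of 11 and 8 of 12 heat shock genes were higher in every day-6 mouse there, beside 8.17% and 6.09% of all genes. AltEnterocyte cells had 6 of 11 higher in this way, beside 6.85% of all genes.

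Pooling the crypt progenitors, a step added after the single types were seen, gave 2 calls of 10758 genes (0.0186%), Hspa1b and Hsph1. Hspa1b had 3.39, 3.27 and 4.47 in day-6 mice, against 0.727, 0.718 and 0.335 in day-5 mice (log2 difference 2.69 ± 0.36, adjusted p = 0.00252). Hsph1 had 2.02, 2.10 and 2.28 in day-6 mice, against 0.869, 0.621 and 0.503 in day-5 mice (1.70 ± 0.23, adjusted p = 0.00206). The day-6 mice lie close together and far from the day-5 mice in both. The sum of 8 neutrophil markers in this pool was 0.130 to 115 in day-6 mice, against 0.0453 to 6.33 in day-5 mice. The part of such transcripts in the pool's results was not tested. Pooled goblet cells gave 10 calls of 10888 genes (0.0918%), with Hspa1b, Hspa1a, Hsph1 and Hspa8 among the 8 that rose. Hspa8 had 14.2, 18.04 and 24.9 in the goblet cells of day-6 mice, against 6.86, 5.72 and 7.63 in those of day-5 mice (1.47, adjusted p = 0.0162). The heat shock sum was 91.5, 85.1 and 73.6 in the progenitors of day-6 mice, against 44.6, 39.0 and 47.8 in those of day-5 mice.

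Genes that cells induce within minutes of handling formed another list. Of 18 immediate early genes (the Fos, Jun, Egr and related families), 0 passed in any layer, and their median log2 differences were 0.11 in epithelium, 0.15 in stroma and -0.06 in immune cells. In the stroma of uninjured mice the same list had a median of 0.63 for 48 h against 24 h. The part of tissue handling in the chaperone differences was not tested.

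Another group that was higher on day 6, in the stroma, was that of ER chaperones and the unfolded protein response. Of 21 measured genes, 13 had all 3 day-6 mice above all 3 day-5 mice (4.87% of all stromal genes did so), 1 passed the test and 0 were lower in all mice. Their median log2 difference was 0.40 in stroma, beside 0.06 for uninjured mice and -0.44 for SZN-1326-p mice over the same times, and was 0.45 with the library term. In the epithelium 2 of 21 were higher in all day-6 mice (median 0.14) and in immune cells 0 of 21 (median 0.18).

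Herpud1 (chr8:94386438-94395377), an ER membrane protein of the pathway that clears misfolded proteins, was the called gene. Its stromal level was 1.81, 2.97 and 2.25 normalized UMIs per cell in day-6 mice, against 0.801, 0.604 and 0.994 in day-5 mice (log2 difference 1.54 ± 0.23, adjusted p = 0.00619). Uninjured mice had 1.58 and 1.44 at 48 h and 0.890 and 1.53 at 24 h. The day-6 anti-GFP mice lie above all of these, and the day-5 mice overlap the lower of the 24 h values. The call held with the library term (1.20, adjusted p = 0.0238), and was lost without the split libraries (1.20, 0.0889), without day-6 mouse 2 (1.35, 0.0674) or without day-5 mouse 2 (1.35, 0.0755). By type, InjuryCryptFB2 had 2.27, 3.36 and 2.08 in day-6 mice, against 0.771, 0.411 and 0.604 in day-5 mice (2.10 ± 0.25, adjusted p = 1.67e-05), a call that held in every alternative run. BaseCryptFB2 had 2.37, 3.77 and 3.79 in day-6 mice, against 1.00, 0.523 and 1.17 in day-5 mice (1.91 ± 0.28, adjusted p = 0.00127), its only call of 11575 genes (0.00864%), lost without day-6 mouse 3 (1.80, 0.0516) or day-5 mouse 2 (1.57, 0.0679), with the library term (1.59, 0.0706) and without the split libraries (1.46, 0.734). CryptFB1 rose as well (1.60 ± 0.27, adjusted p = 0.00713), with the call lost without day-6 mouse 2 (0.0967) or day-5 mouse 1 (0.0872) or 2 (0.0987).

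**Figure D4:**
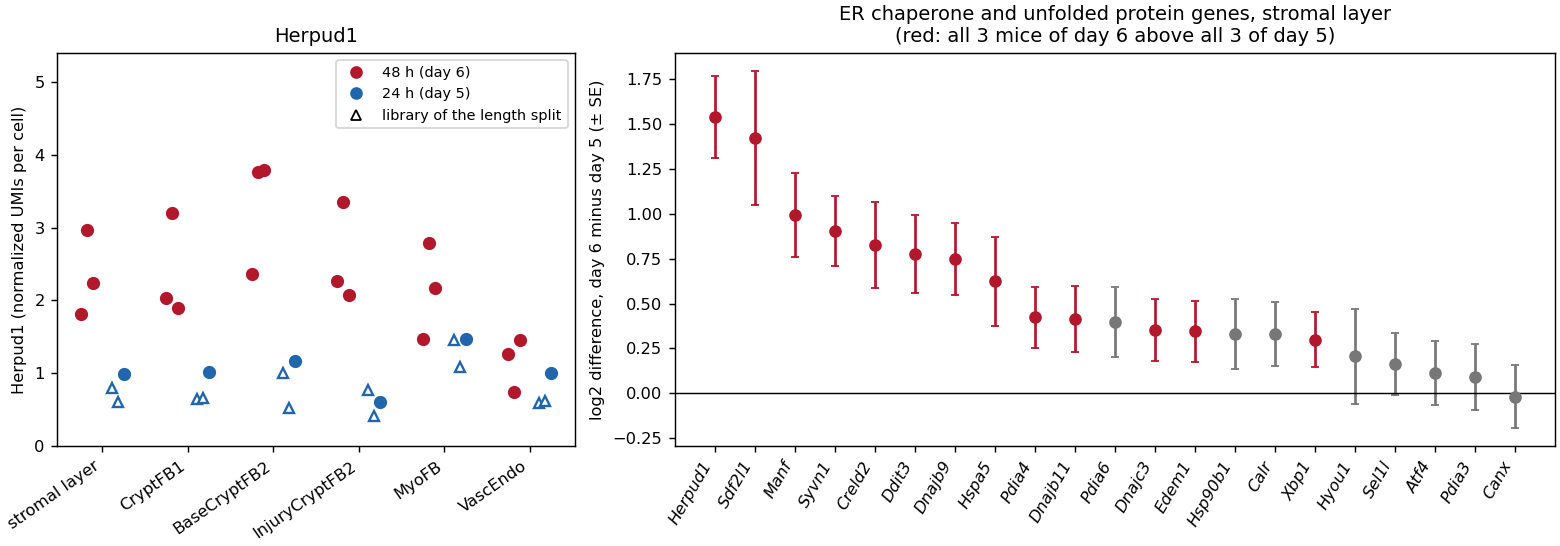
Left, Herpud1 level (normalized UMIs per cell) by mouse in the stromal layer and 5 stromal types, day 6 left of day 5 and split libraries as open triangles. Right, log2 difference ± SE of the 21 measured ER genes in the stromal layer, red where all 3 day-6 mice lie above all 3 day-5 mice, which holds for 13 genes.

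The remaining 20 ER genes of the stroma did not pass. Sdf2l1, a cofactor of the ER chaperone BiP, had 1.12, 1.60 and 0.878 in day-6 mice, against 0.343, 0.404 and 0.564 in day-5 mice (log2 difference 1.42, adjusted p = 0.36). Manf, a secreted ER stress factor, had 4.90, 5.75 and 4.06 in day-6 mice, against 2.25, 2.25 and 2.86 in day-5 mice (0.99, adjusted p = 0.185). Syvn1, the ubiquitin ligase that works with Herpud1, had 0.332, 0.546 and 0.375 in day-6 mice, against 0.218, 0.253 and 0.177 in day-5 mice (0.90, adjusted p = 0.0999). None of the 3 overlaps between days. Creld2 (0.83), Ddit3, the stress factor CHOP (0.77), and Dnajb9 (0.75) stood alike, with adjusted p from 0.349 to 0.434. Hspa5, which encodes BiP, had 14.5, 18.7 and 14.9 in day-6 mice, against 11.5, 11.6 and 8.26 in day-5 mice (0.62, adjusted p = 0.686). Hsp90b1, Pdia3, Pdia6, Calr, Canx, Hyou1, Atf4 and Sel1l overlapped. In BaseCryptFB2 15 of 21 listed genes were higher in every day-6 mouse (background 4.53%), in InjuryCryptFB2 and InjuryMono1 11 of 21 (4.59% and 8.17%) and in VascEndo 2 of 22 (6.27%).

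The other genes that passed in the stroma belong to no list. Errfi1, a feedback inhibitor of the EGF receptor, had 0.730, 0.844 and 0.938 in day-6 mice, against 0.463, 0.471 and 0.520 in day-5 mice (log2 difference 0.77 ± 0.14, adjusted p = 0.0327). Uninjured mice had 0.839 and 0.844 at 48 h and 0.565 and 0.508 at 24 h, a difference of 0.64, so Errfi1 ran alike with the collection time without DSS. It lost the call without the split libraries (0.67, 0.146), as did Trim65 (adjusted p = 0.111), and without day-6 mouse 2 (0.147) or 3 (0.237) or day-5 mouse 1 (0.119) or 2 (0.16). Trim65, a ubiquitin ligase named here after its values were seen because its level is low, had 0.142, 0.119 and 0.212 in day-6 mice, against 0.0751, 0.0502 and 0.0565 in day-5 mice (1.23 ± 0.22, adjusted p = 0.0327), and was lost without day-6 mouse 1 (0.0728), 2 (0.0617) or 3 (0.24), or day-5 mouse 2 (0.208) or 3 (0.0583).

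Cyp2c55, a cytochrome P450 of colonocytes and also named after its values were seen, was the one stromal gene that fell. It had 0.019, 0.026 and 0.022 normalized UMIs per cell in the stroma of day-6 mice, against 0.205, 0.147 and 0.099 in that of day-5 mice (log2 difference -2.26 ± 0.25, adjusted p = 0.00044), and passed without any 1 mouse, but not without the split libraries (-1.76, 0.0514). The gene is mainly epithelial: its epithelial level was 10.2, 6.30 and 2.81 in day-6 mice, against 18.7, 13.6 and 11.8 in day-5 mice (-1.35, adjusted p = 0.198). The summed level of 6 epithelial markers in the stromal layer was 0.763 to 1.82 in day-6 mice, against 1.83 to 2.90 in day-5 mice, with all 6 lower, and that of 5 colonocyte markers 0.257 to 0.582 against 0.699 to 1.14. Their part in the result was not tested. In CryptFB1 the gene had 1 UMI in day-6 mice and 24 UMIs in day-5 mice, a ratio of 0.0388 (95% exact interval 0.000942 to 0.238, counting error only; adjusted p = 0.0173, lost without day-6 mouse 1 or 2 or day-5 mouse 1 or 2, at 0.0987 to 0.315).

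A number of stromal genes had lower levels in every day-6 mouse without passing. Inhba, a subunit of activin, had 0.250, 0.321 and 0.282 in the stroma of day-6 mice, against 0.798, 0.692 and 0.351 in that of day-5 mice (log2 difference -1.01, adjusted p = 0.142), and the difference was -0.30 without the split libraries. Ptch1, the Hedgehog receptor, had 0.791, 0.517 and 0.654 in day-6 mice, against 1.36, 1.16 and 0.920 in day-5 mice (-0.80, adjusted p = 0.204; -0.51 without the split libraries). The plasminogen activator Plau (-1.20, adjusted p = 0.349; -0.64 without the split libraries) and the integrin Itgb3 (-0.75, 0.25) also did not overlap. Il11, a cytokine of injured fibroblasts, had 0.620, 0.523 and 0.063 in day-6 mice, against 2.05, 0.962 and 1.18 in day-5 mice (-2.20, adjusted p = 0.712), and the neutrophil attractant Cxcl2 0.338, 0.481 and 0.356 against 1.80, 1.12 and 0.570 (-1.41, adjusted p = 0.706; -0.55 without the split libraries). For both the days are apart, but so is 5.71% of all stromal genes in this direction. The proliferation marker Mki67 had 0.0197, 0.0394 and 0.0081 in day-6 mice, against 0.113, 0.0901 and 0.131 in day-5 mice (-2.01, adjusted p = 0.327), and 5 of 18 measured mitosis genes were lower in every day-6 mouse. Col1a1, Mmp3, Timp1, Saa3 and Il6 overlapped, and 1 of 28 collagen and matrix genes was apart between the days.

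Besides chaperones, Herpud1 and Cyp2c55, 2 genes passed in CryptFB1, in opposite directions. Cxcl13, the chemokine that draws B cells, had 4.90, 4.52 and 2.68 in day-6 mice, against 1.06, 1.28 and 1.31 in day-5 mice (log2 difference 1.68 ± 0.29, adjusted p = 0.00914), and passed with the library term (1.81, 0.0331). Every day-6 mouse held at least 2 times the level of any day-5 mouse. In the whole stroma it had 6.76, 7.44 and 2.16 in day-6 mice, against 0.599, 1.81 and 1.35 in day-5 mice (2.06, adjusted p = 0.715). Cdh13, a cadherin without a transmembrane part, had 0.369, 0.457 and 0.396 in CryptFB1 of day-6 mice, against 1.11, 1.06 and 0.860 in that of day-5 mice (-1.29 ± 0.23, adjusted p = 0.0144; -1.28 and 0.0238 with the library term). Neither call was kept without the split libraries (0.578 and 0.386). The Cxcl13 call was lost without day-6 mouse 1 (0.185) or 2 (0.0967), or day-5 mouse 1 (0.0894) or 2 (0.0882), and the Cdh13 call without day-6 mouse 1 (0.185) or 3 (0.0715), or day-5 mouse 1 (0.131) or 2 (0.161). In VascEndo the phospholipid transfer gene Pltp had 3.20, 2.19 and 3.03 in day-6 mice, against 1.09, 1.36 and 0.763 in day-5 mice (1.40 ± 0.28, adjusted p = 0.0181), lost without day-6 mouse 1 (0.226) or 3 (0.157), or day-5 mouse 1 (0.0522) or 3 (0.094).

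AltEnterocyte cells, an enterocyte state of the injured colon with 20 to 52 cells per mouse, had 6 calls of 9852 genes (0.0609%), all higher on day 6 and none of them a chaperone. Ccl20, the chemokine for cells with the receptor CCR6, had 0.707, 0.206 and 1.07 normalized UMIs per cell in day-6 mice and 0 in each day-5 mouse. These are 51 UMIs against 0, at least 14.5-fold higher against a floor of 3 counts over the group (counting error only; adjusted p = 0.00033, 0.0665 without day-6 mouse 3). Mt1, a metal-binding metallothionein, had 8.09, 14.9 and 7.77 in day-6 mice, against 2.67, 2.29 and 2.16 in day-5 mice (log2 difference 2.04 ± 0.29, adjusted p = 0.00033), and passed without any 1 mouse. Its day-6 mice lie far above its day-5 mice. Slc20a1, a phosphate carrier, had 3.22, 5.86 and 5.92 in day-6 mice, against 1.75, 1.19 and 1.88 in day-5 mice (1.60, adjusted p = 0.0155). Sord, sorbitol dehydrogenase, rose by 1.62 (0.0155), Mgst1, a microsomal glutathione transferase, by 2.46 (0.0181), and Ifit2, an interferon-induced gene, by 2.11 (0.0206). These 4 lost the call without day-6 mouse 3 (0.179 to 0.286) or day-5 mouse 2 (0.195 to 0.315). Sord, Mgst1 and Ifit2 also lost it without day-6 mouse 1 (0.0873, 0.0873 and 0.302), Mgst1 and Slc20a1 without day-6 mouse 2 (0.174 and 0.189), Sord without day-5 mouse 1 (0.0523), and Sord, Mgst1 and Ifit2 with the library term (0.166, 0.726 and 0.154). Ccl20 and Mt1 were the calls kept without the split libraries (0.0253 and 0.0141). In the whole epithelium Mt1, Mgst1 and Ccl20 overlapped between the days.

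**Figure D5:**
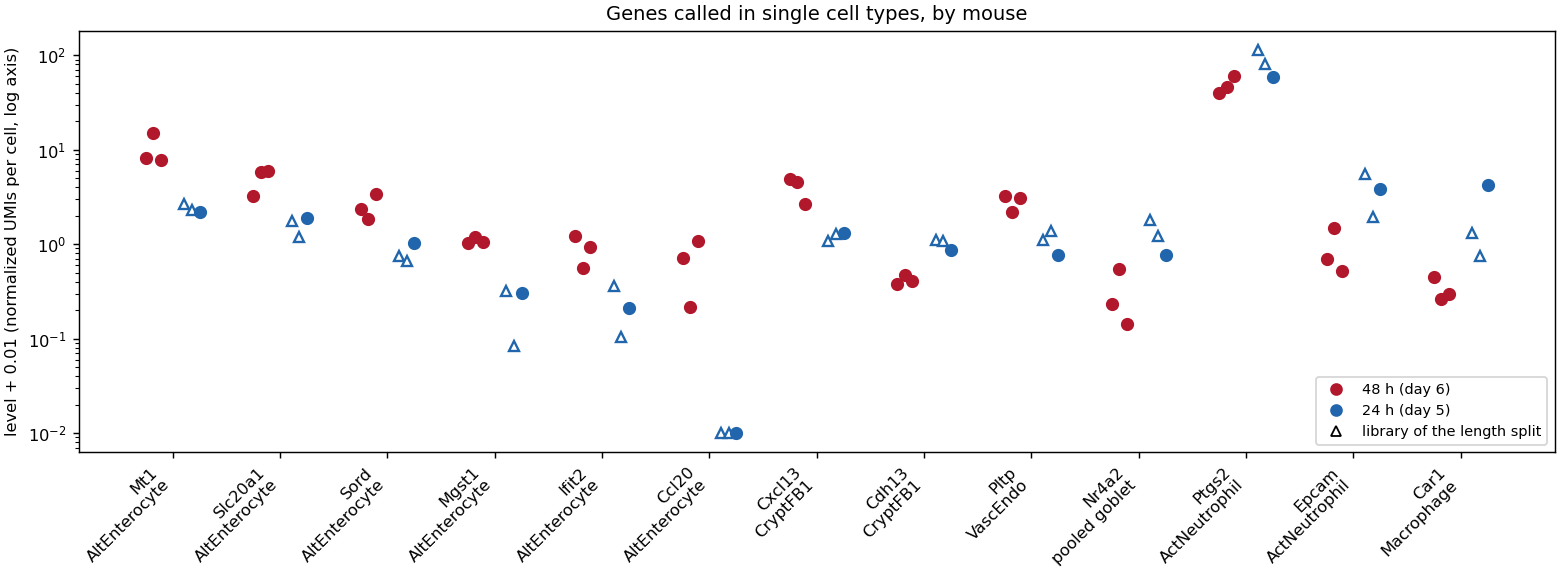
Level + 0.01 (normalized UMIs per cell, log axis) by mouse of 13 genes that passed in a deposited or pooled type, day 6 left of day 5 and split libraries as open triangles. AltEnterocyte Ccl20 sits at 0.206 to 1.07 on day 6 and at the floor of the axis on day 5, and ActNeutrophil Ptgs2 is the one gene whose mice overlap.

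Beyond the chaperones, no gene of the epithelium as a layer passed in the main fit. Of all its tested genes, 6.93% were higher and 5.46% lower in every day-6 mouse. Kcne3, a potassium channel subunit of chloride-secreting colonocytes, had 0.702, 0.552 and 0.489 in day-6 mice, against 0.287, 0.275 and 0.361 in day-5 mice (log2 difference 0.89, adjusted p = 0.0613). Wfdc18 had 1.07, 0.692 and 0.386 in day-6 mice, against 0.119, 0.234 and 0.239 in day-5 mice (1.75, adjusted p = 0.0698). Lower genes were Bmp3, a growth factor of the BMP family, with 0.602, 0.608 and 0.369 in day-6 mice, against 1.19, 0.821 and 1.19 in day-5 mice (-1.02, adjusted p = 0.0698), and the calcium pump Atp2b1 with 3.10, 2.93 and 2.38 against 6.70, 5.92 and 3.85 (-0.94, adjusted p = 0.124). None of these 4 passed. Genes that passed in limma only with the library term were Clca3a2 (1.88, adjusted p = 0.00429), Foxq1 (1.50, 0.0133), Nox1 (2.15, 0.0158) and Clca3b (1.14, 0.0457). Hspa4l (1.06, 0.00549) and the HSP90 cochaperone Chordc1 (1.05, 0.0487) did so too. Clca3a2 overlapped between the days. Foxq1 differed by 1.25 without the term, beside 1.21 in uninjured mice. Ly6a, known as a marker of repairing epithelium, had 7.20, 5.46 and 5.68 in day-6 mice, against 2.38, 4.52 and 4.53 in day-5 mice (0.73, adjusted p = 0.331). The antimicrobial lectin Reg3b had 31.9, 96.0 and 46.9 in day-6 mice, against 56.9, 21.1 and 144 in day-5 mice, and the goblet mucin Muc2 82.0, 105 and 117 against 110, 96.2 and 131. Both overlap widely, as do Mki67, Car1 and Krt20.

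Few other epithelial lists stood apart from the background, in which 6.93% of genes were higher and 5.46% lower in every day-6 mouse. Tuft cell genes were higher in 5 of 10 (median log2 difference 0.82, or 0.37 with the library term), beside the higher tuft share given above. Ribosome biogenesis genes were higher in 9 of 34 (median 0.33, or 0.41 with the library term). Wnt target genes were higher in 1 of 12 (median 0.46), with Axin2, a feedback inhibitor of Wnt signalling, at 0.0795, 0.0440 and 0.0714 in day-6 mice, against 0.0782, 0.0166 and 0.00738 in day-5 mice. Of 35 colonocyte genes 2 were higher and 3 lower. Ribosomal protein genes had a median of 0.53 with none apart between days, and of -0.04 with the library term, so their direction turned with that term. No member of these lists passed the test.

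In goblet cells, pooled, Tmsb10, an actin-binding peptide, had 11.03, 10.6 and 13.1 in day-6 mice, against 2.24, 3.18 and 5.75 in day-5 mice (log2 difference 1.74, adjusted p = 0.0455). Prdx6, a peroxiredoxin, had 1.80, 1.38 and 2.17 in day-6 mice, against 0.599, 0.597 and 0.552 in day-5 mice (1.57, adjusted p = 0.0162). Nr4a2, an orphan nuclear receptor, had 0.225, 0.541 and 0.134 in day-6 mice, against 1.78, 1.22 and 0.753 in day-5 mice (-2.17, adjusted p = 0.0162). The mice of the days are apart in all 3, and these calls were lost with the library term (0.102, 0.0746 and 0.121). Pex5l had 1 UMI in day-6 mice and 27 UMIs in day-5 mice (ratio 0.0367, 95% exact interval 0.000895 to 0.222). Of the 10 goblet calls, Hsph1 alone was kept without the split libraries (0.0243). All 10 were lost without day-6 mouse 3 (0.0867 to 0.208), day-5 mouse 1 (0.087 to 0.313) or day-5 mouse 2 (0.0516 to 0.214). In the same cells 18 of 33 ribosomal protein genes and 15 of 31 respiratory chain genes were higher in every day-6 mouse (background 6.92%), with medians of 0.72 and 0.69 that were 0.25 and 0.17 with the library term.

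Among immune cells the inflammatory genes did not differ between days beyond the spread of the mice. S100a8, a calprotectin subunit of neutrophils, had 137, 151 and 31.4 normalized UMIs per cell in day-6 mice, against 27.6, 66.4 and 45.7 in day-5 mice, and S100a9 211, 229 and 46.0 against 44.8, 101 and 79.0. Day-6 mouse 3 lies among the day-5 mice, and the same mouse had the fewest activated neutrophils of its day (7.69% of immune cells, against 20.6% and 19.2% in the other two). Il1b had 102, 106 and 59.0 in day-6 mice, against 96.1, 113 and 55.1 in day-5 mice. The cytokine Tnf had 1.62, 1.26 and 1.36 in day-6 mice, against 3.45, 2.03 and 0.788 in day-5 mice, and the prostaglandin synthase Ptgs2 12.5, 15.7 and 12.0 against 23.8, 24.1 and 8.76. All of these overlap. Glycolysis genes were higher in every day-6 mouse in 4 of 26 (median log2 difference 0.25), neutrophil granule genes in 1 of 11 (0.47), beside 4.18% of all immune genes higher and 5.54% lower in this way.

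In activated neutrophils 4 of 10335 genes passed (0.0387%). Fth1, the ferritin heavy chain that stores iron, had 475, 516 and 479 in day-6 mice, against 359, 345 and 426 in day-5 mice (log2 difference 0.39 ± 0.08, adjusted p = 0.00809). Ptgs2 had 40.0, 45.5 and 60.6 in day-6 mice, against 112, 80.3 and 58.5 in day-5 mice (-0.75, adjusted p = 0.00809). Fth1 is apart between the days, Ptgs2 is not. Both were smaller and uncalled under the library term, with 0.15 (adjusted p = 0.832) and -0.45 (0.568), and Fth1 lost its call without any but day-5 mouse 3 (0.0702 to 0.264), Ptgs2 without day-6 mouse 1 (0.755) or 2 (0.219) or day-5 mouse 1 (0.8). Epcam, an epithelial adhesion molecule, had 0.688, 1.48 and 0.507 in the neutrophils of day-6 mice, against 5.53, 1.91 and 3.79 in those of day-5 mice (-2.08, adjusted p = 0.00394). The epithelial peroxidase gene Gpx2 fell by 1.96 on the log2 scale (adjusted p = 0.0256). Both epithelial genes lost the call without day-6 mouse 1 (0.0702 and 0.755) or 3 (0.135 and 0.864) or day-5 mouse 1 (0.175 each). None of the 4 neutrophil calls was kept without the split libraries (adjusted p from 0.0817 to 0.89).

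Epithelial transcripts were lower on day 6 in several, though not all, cell types of other layers. The summed level of the 6 epithelial markers in neutrophils was 5.17 to 9.68 in day-6 mice, against 14.7 to 17.1 in day-5 mice, with all 6 lower. In the immune layer it was 2.70 to 4.85 in day-6 mice, against 5.34 to 7.67 in day-5 mice, and in CryptFB1 0.636 to 1.37 against 2.10 to 2.42. The groups do not overlap in any of these 3. In dendritic cells they do, with 1.174 to 3.535 in day-6 mice, against 2.205 to 2.985 in day-5 mice, and 2 of the 6 markers higher. The groups also overlap in VascEndo (1.15 to 3.58 against 2.25 to 6.24) and InjuryCryptFB2 (0.854 to 2.14 against 2.06 to 3.93). In macrophages Car1, a carbonic anhydrase of colonocytes, had 0.444, 0.254 and 0.289 in day-6 mice, against 1.31, 0.747 and 4.25 in day-5 mice (log2 difference -2.30 ± 0.41, adjusted p = 0.0275), the only call there (0.00893%), lost without day-6 mouse 2 (0.766) or 3 (0.147) or day-5 mouse 3 (-1.60, 0.0867). The epithelial marker sum in macrophages was 1.65 to 1.91 in day-6 mice, against 2.37 to 3.93 in day-5 mice. The part of epithelial transcripts in these results was not tested. Their opposite in the epithelium was 1 library: the sum of 8 neutrophil markers there was 0.124 to 39.0 in day-6 mice, against 0.175 to 2.81 in day-5 mice.

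Set against the uninjured mice, the difference between days could not be told from that of the collection times for any single gene of a layer. The contrast of the anti-GFP difference minus the uninjured one gave 0 genes by limma in each layer (0.0%), with 273 genes in epithelium (2.53%), 309 in stroma (2.7%) and 701 in immune cells (6.14%) at an unadjusted p under 0.05. The uninjured comparison itself, 2 mice at 48 h against 2 at 24 h, gave 0, 0 and 14 genes (0.123% of the immune genes). The day comparison had 1331 genes in epithelium (12.3%), 795 in stroma (6.94%) and 377 in immune cells (3.3%) at an unadjusted p under 0.05. The log2 differences of the called chaperones in uninjured mice, none of which passed this contrast, were 0.72 for epithelial Hspa1b beside 2.88, 0.20 for epithelial Hsph1 beside 1.93, and 0.19 for immune Hsph1 beside 1.87. In the stroma they were 1.04 for Hspa1b beside 2.71, 1.13 for Hspa1a beside 1.69, 0.10 for Hsph1 beside 1.64, 0.13 for Hspb1 beside 1.52 and 0.26 for Dnaja1 beside 1.17. Within CryptFB1 4 of 11403 genes (0.0351%) passed this contrast, Hspa1b among them (3.01, SE 0.449, adjusted p = 0.00556). Within AltEnteroPC, where a single uninjured mouse at 48 h had at least 20 cells, 0.551% of genes passed, and Dnajb1 was one of them (2.39, SE 0.467, adjusted p = 0.0233). Set against the SZN-1326-p mice instead, 15 epithelial genes passed (0.139%) and 0 in stroma or immune cells (0.0% each).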

How the data were processed

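The authors deposited a matrix of log2 values per gene and cell, log2(UMIs divided by a size factor + 1), with a table naming each cell's sample, tissue layer and type. Reads were aligned with Cell Ranger 3.0.2 to mm10, per the submitters' processing notes; how doublets were treated is not given in the sources used here, and no caller was run. The annotation names the treated arm SWAP, matched here to SZN-1326-p through the sample titles. Un-logged, all 60867816 values were whole multiples of a step per cell (tolerance 1e-06). Means of un-logged values per mouse (log2, + 0.01) were tested with limma 3.58.1 (trend, robust; R 4.3.3) over genes with a mean of at least 0.05 in 2 mice, in 1 fit of 16 mice and 6 groups (10 residual degrees of freedom), with Benjamini-Hochberg adjustment at 0.05. Log2 differences understate low genes. Cell types needed 20 cells in each of the 6 mice. Shares were compared by exact permutation of log2 shares with 0.5 cell added. Depth was 9616512 to 14928677 UMIs per anti-GFP mouse, and intervals and floors (3 counts) cover counting error only. Named genes were, per layer, up to 10 called genes in each direction (5 per type) by size of difference, at a level of at least 0.2 and without overlap, up to 5 more by unadjusted p, and genes of fixed sets; gene models and ribosomal protein genes were counted only. The members, 35 gene lists and tests were chosen with earlier results of these data known. Alternatives covered filters, pseudocount, scaling, samples fitted, a library term, replicate number, cell quality and single mice. The procedure was tested on simulated data. Promoters are from RefSeq (GRCm38.p6), gene positions from GENCODE.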

Additional observations from a re-analysis of the deposited data

Results flagged for a closer look

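The results below are differences of differences: the change between 48 h and 24 h in anti-GFP mice minus the same change in another arm, each tested in the same limma fit. The comparison with SZN-1326-p was added after the data were seen. In the epithelium 15 of 10795 genes (0.139%) passed against SZN-1326-p, and 0 in stroma or immune cells.

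In the epithelium Hspa1b differed by 2.98 (log2, SE 0.493, adjusted p = 0.036). SZN-1326-p mice had 0.707, 1.13 and 0.523 normalized UMIs per cell at 48 h and 1.02, 1.08 and 0.469 at 24 h, where the anti-GFP mice had 2.42, 4.03 and 4.38 on day 6 and 0.581, 0.416 and 0.419 on day 5. Hsph1 differed by 2.03 (SE 0.361, adjusted p = 0.036), with 0.712, 0.830 and 0.503 at 48 h and 0.999, 0.635 and 0.578 at 24 h in SZN-1326-p mice. In the SZN-1326-p arm the times overlap for both chaperones. Irf7, an interferon regulatory factor, differed by 1.95 (SE 0.351, adjusted p = 0.036), and here it was the SZN-1326-p arm that moved: it had 0.141, 0.224 and 0.163 at 48 h and 0.674, 1.05 and 0.492 at 24 h, where anti-GFP mice had 0.970, 0.692 and 0.642 on day 6 and 0.757, 0.755 and 0.772 on day 5.

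In CryptFB1 fibroblasts Hspa1b differed by 3.01 from the uninjured change (SE 0.449, adjusted p = 0.00556) and by 2.69 from that of SZN-1326-p (SE 0.401, adjusted p = 0.00569). Its level was 1.60, 1.23 and 1.04 at 48 h and 0.588, 0.802 and 0.536 at 24 h in SZN-1326-p mice, and 1.56 and 0.801 at 48 h and 0.649 and 0.750 at 24 h in uninjured mice. All 3 arms thus had higher mean levels at 48 h, the anti-GFP arm by the most. In BaseCryptFB2 Creld2, an ER stress gene, differed by 2.65 from SZN-1326-p (SE 0.473, adjusted p = 0.0351), with 1.53, 2.70 and 1.93 on day 6 and 0.750, 0.882 and 0.836 on day 5 in anti-GFP mice, beside 0.706, 0.359 and 0.237 at 48 h and 0.974, 1.09 and 1.05 at 24 h in SZN-1326-p mice. The times do not overlap in either arm, and the arms run in opposite directions.

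Among AltEnterocyte cells, where SZN-1326-p at 48 h is a single mouse with at least 20 cells, Hspa1b differed by 3.49 (SE 0.70, adjusted p = 0.0054), Ifit2 by 2.97 (SE 0.725, adjusted p = 0.0289), Irf7 by 2.07 (SE 0.536, adjusted p = 0.0465) and Slc20a1 by -2.03 (SE 0.523, adjusted p = 0.0464). Slc20a1 had 12.6 in that mouse and 1.52, 0.801 and 0.847 at 24 h. In AltEnteroPC cells Dnajb1 differed by 2.39 from the uninjured change (SE 0.467, adjusted p = 0.0233), where uninjured at 48 h is also a single mouse. A single mouse is taken to vary like the other groups, and these 5 values rest on it.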

How the results depend on the processing

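The calls made up 61 pairs of a gene and a layer, type or pool. The same gene can recur in them, and layers hold the cells of their types and pools, so the pairs are not independent. Over these pairs and 1102 alternative results, 719 kept the direction and the call, 383 kept the direction but not the call, and 0 reversed. Epithelial calls numbered 2, and 6 with a pseudocount of 0.1, 7 with the library term, 22 with the library score, 11 with voom, 5 in cells under 20% mitochondrial UMIs, 5 without the 4 split libraries, 1 with the day-5 mouse outside the split alone, 26 on mean deposited log2 values, and 3 to 193 without 1 mouse (193 without day-5 mouse 3). Stromal calls numbered 9, and 4 with the compared groups alone, 19 with the library score, 1 with the replicate block, 5 with voom, 4 without the split libraries, 0 with the mouse outside the split, and 2 to 12 without 1 mouse (2 without day-6 mouse 2 or day-5 mouse 2). Immune calls numbered 1, and 0 with the compared groups alone, 2 with voom, 2 on mean log2 values, and 0 to 1 without 1 mouse. Calls against uninjured mice were 0, except for 2 in epithelium and 6 in immune cells with a pseudocount of 0.1, 4 in immune cells with no filter, 1 in stroma with the library term, 3 in stroma without the split libraries, and 0 to 1 in immune cells without 1 mouse. Cell type calls numbered 37, and 99 with the library term, 69 with the library score, 61 with the replicate block, 68 with voom, 787 without the split libraries, 593 with the mouse outside the split, 1 at 50 cells per mouse, and 21 to 215 without 1 mouse. Non-overlapping layer shares numbered 1, and 0 under 20% mitochondrial UMIs (1 to 2 without 1 mouse), and type shares 6 (8 to 16). Most cell type calls in the settings that leave 1 day-5 mouse came from VascEndo. The causes of these shifts were not tested. Of the main calls the library term kept 1 of 2 in epithelium, 6 of 9 in stroma and 1 of 1 in immune cells. Stromal Baz1b reversed, at 0.68 with the library term (adjusted p = 0.0237) and -0.08 without it. Same-numbered mice did not deviate together (correlations -0.146 to 0.137), so the replicate block shares only a number. A lone day-5 mouse is assumed to vary like the other groups. The low mitochondrial setting was not run for AltEnteroPC, AltEnterocyte, the pooled progenitors and the pooled goblet cells. It was run for 42 of the 61 pairs, and for no single epithelial type or pool.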
